A study of Mus musculus with 10 samples.

Results

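The 41 genes described here are the transcription factor NRF2 (gene Nfe2l2), its inhibitor Keap1, and 39 genes that make, recycle or use glutathione, run the thioredoxin system, supply NADPH, reduce quinones and carbonyls or, in the case of Ephx1, open epoxides. They were taken by name and looked up among the 55385 genes of the count table of the EP300 experiment. All 41 were found, and 41 of 41 had enough counts to be tested. EP300 is a histone acetyltransferase and transcriptional coactivator.

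The libraries are bulk RNA-seq of mouse liver hepatocytes, sorted after the liver was perfused. Their titles begin with HCC, the usual abbreviation of hepatocellular carcinoma, and the share of tumour cells in a library was not measured. All mice of the experiment were of the strain given as C57BL/6J 129SV, carried floxed Ep300 alleles (EP300f/f), ate a diet with DDC, which injures hepatocytes and bile ducts, and received a pT3-cMet plasmid, carrying the receptor tyrosine kinase gene cMet, by hydrodynamic tail vein injection (HTVi), with 5 months of treatment. The 2 libraries labelled EP300 KO (genotype EP300-/-) came from mice given AAV-TBG-Cre, and the 2 labelled EP300 WT from mice given AAV-TBG-GFP. TBG is a promoter active in hepatocytes, so that Cre was directed to those cells and other liver cells keep the gene. The labels mention pooled sequencing and tie no library to an animal, so p-values rest on how far these libraries differ from each other, which may be technical. The sex of the mice is not given in the labels. The 6 libraries of the series from a diet comparison are not analysed here.

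Levels are given in CPM, the count relative to the library size after TMM adjustment, and pairs of values are in the order of replicates 1 and 2. Each library held between 17709799 and 18831671 counts. The count of Ep300 itself went against the KO label. Ep300 stood at 62.3 and 57.9 CPM in the WT-labelled and 73.7 and 72.3 CPM in the KO-labelled libraries, 0.28 (SE 0.07, adjusted p = 0.00498) on the log2 scale with edgeR, and it did not pass without WT replicate 2 (adjusted p = 0.128). A count over the whole gene does not show whether the floxed exons were removed, and every direction here is between libraries as labelled. Xist, the noncoding RNA of the inactive X chromosome, had 2310 and 1411 counts in KO-labelled replicates 1 and 2 and 3 and 2 in the WT-labelled replicates. Xist thus split the libraries exactly as the labels do, so sex and the KO label cannot be told apart in these libraries. Hepatocyte markers were high in every library, at a summed 97798 to 98340.3 CPM in the WT-labelled and 93440.4 to 96242 CPM in the KO-labelled libraries, against 158 to 159.8 CPM in the WT-labelled and 119.8 to 121 CPM in the KO-labelled libraries for 8 biliary markers. Of the marker lists, 9 of 9 genes of male-biased liver expression and 7 of 9 periportal genes were higher in the KO-labelled libraries. Of the 9 pericentral genes, 6 were lower and 3 higher. Lower as well were 7 of 8 proliferation, 4 of 7 endothelial and 4 of 7 stellate genes. Of all 14200 genes tested, 17.5% were lower and 16.7% higher. What part these differences have in the results on the 41 genes was not tested.

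NRF2 is held in the cytoplasm by KEAP1, which marks it for breakdown. When electrophiles or oxidants modify KEAP1, NRF2 accumulates, pairs with a small MAF protein and binds antioxidant response elements in its target genes. In liver these targets include the enzymes of glutathione synthesis, many glutathione transferases, thioredoxin reductase, the NADPH-producing steps of the pentose phosphate pathway and the quinone reductase NQO1. Glutathione is the main thiol of hepatocytes, and transferases attach it to reactive compounds while peroxidases use it to remove peroxides.

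Of the 41 genes, 22 were lower and 8 were higher in the KO-labelled libraries at an adjusted p under 0.05 (edgeR quasi-likelihood F test, Benjamini-Hochberg adjustment over all 14200 genes tested), and 11 did not pass. Of all genes tested, 34.2% passed, 17.5% lower and 16.7% higher. All steps of glutathione synthesis and recycling on the list, the most abundant mu class transferases, sulfiredoxin and the reductases Nqo1, Cbr1 and Cbr3 fell. Gpx1, Gstp1, Mgst1 and Ephx1, all among the more abundant genes of the list, rose, as did the less abundant Gstz1, Gstk1, Gsto1 and Gstt2. The median log2 fold change, KO-labelled minus WT-labelled, was -0.21 over the 41 genes and -0.01 over all genes tested.

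The changes ran from -3.01 for Gpx2 to 0.96 for Gpx1. Among the genes that fell, 6 did so by at least 1 on the log2 scale, and 0 of the 8 that rose reached that size. Both KO-labelled libraries lay below both WT-labelled libraries for 28 of the 41 genes, as for 33.5% of all genes tested, and above both for 8, as for 32.9% of all. The KO-labelled libraries were not equally far from the WT-labelled ones. KO replicate 1 was the lower of the pair for 18 of the 22 genes that fell and the higher of the pair for 6 of the 8 that rose. Direction and call held in every alternative setting tried for 20 of the 30 genes that passed, 13 of them lower and 7 higher. With counts scaled by library size alone, 28 of the 41 genes were lower and 8 higher, and of all genes 3056 were lower and 1846 higher, against 2485 and 2366 with the TMM scaling used here.

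**Figure D1:**
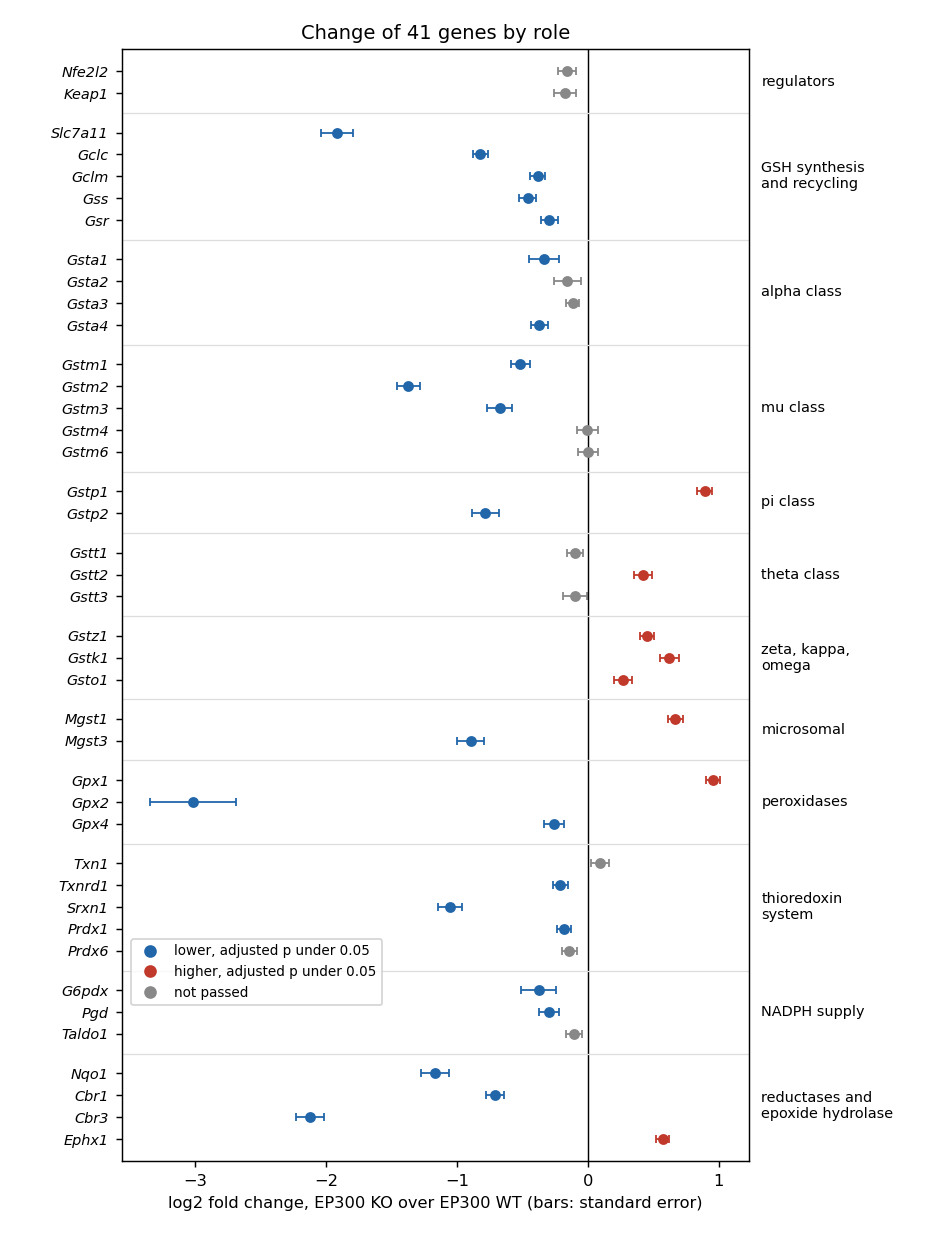
Log2 fold change of each of the 41 genes, KO-labelled over WT-labelled libraries, grouped by role; horizontal bars are 1 SE from the edgeR fit and colours give the call. Gpx2, Cbr3 and Slc7a11 lie farthest to the left, and the genes that rose lie between 0.27 and 0.96.

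**Figure D2:**
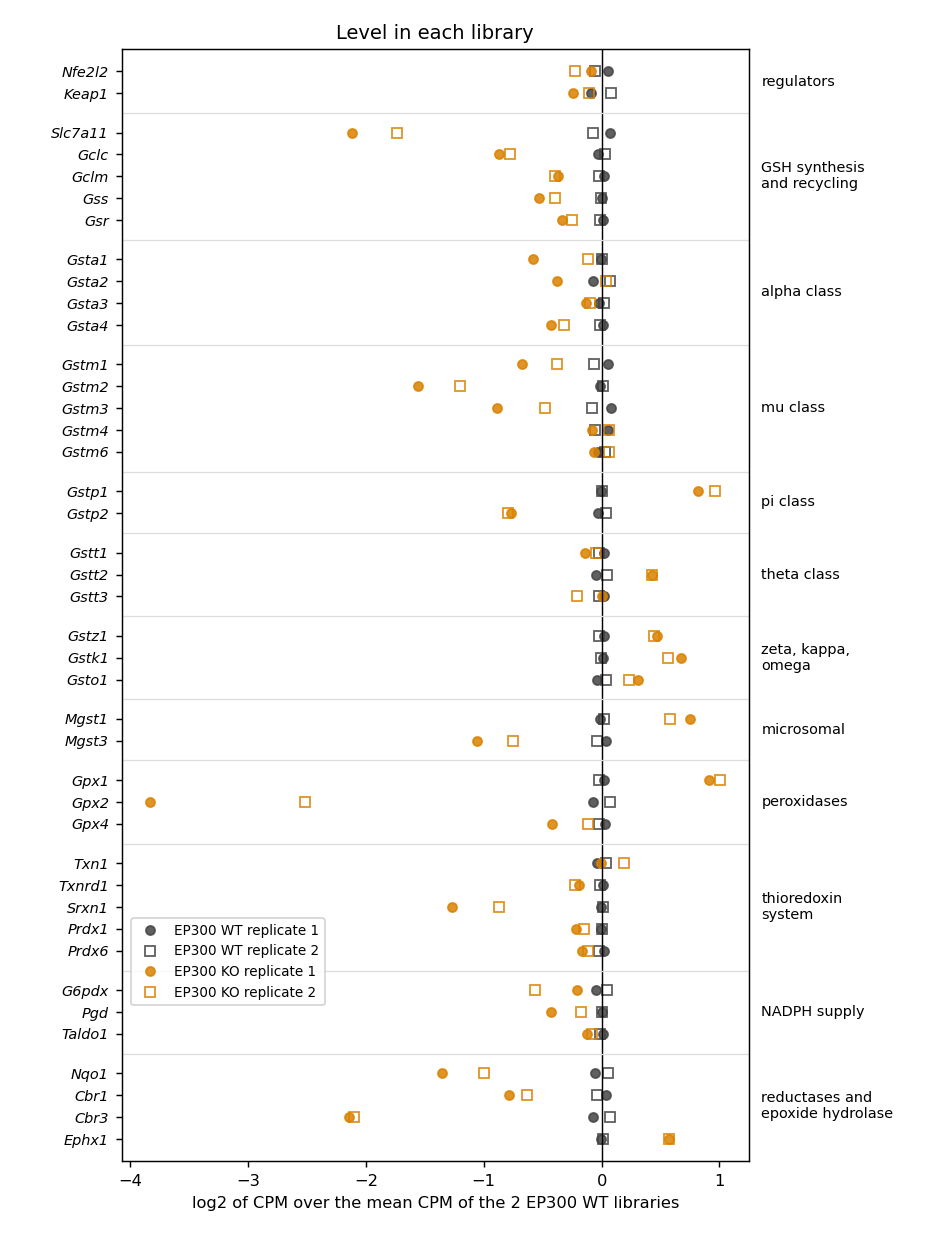
Level of each gene in each of the 4 libraries, as the log2 ratio of its CPM (counts relative to the library size after TMM adjustment) to the mean of the WT-labelled libraries. The WT-labelled points lie close together around 0, and for 28 genes both KO-labelled points lie to their left.

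The transcription factor and its inhibitor came first. Nfe2l2 stood at 103 and 96.2 CPM in the WT-labelled and 93.9 and 85.4 CPM in the KO-labelled libraries. Both KO-labelled libraries lay below both WT-labelled ones, but the log2 fold change of -0.16 (SE 0.07, adjusted p = 0.0983) did not pass. Keap1 stood at 42.0 and 47.2 CPM in the WT-labelled and 37.6 and 41.3 CPM in the KO-labelled libraries and also did not pass, at -0.18 (SE 0.08, adjusted p = 0.125). The values of Keap1 in the groups did not overlap, but the lower WT-labelled library and the higher KO-labelled one were nearly level. Exons of Keap1 overlap those of Gm16754 over 10.9% of their length, and the strand setting of the counts is not stated, so that reads of these genes may not be told apart. NRF2 activity is set largely by the stability and location of the protein, which RNA counts do not measure.

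The antioxidant response element has the core TGACNNNGC. It was searched on both strands in RefSeq promoter windows (build GRCm38.p6) that run from 250 bases before to 50 bases after each annotated start. A window was at hand for 36 of the 41 genes, and 9 of the 36 (25.0%) held the core, against 13.99% of 27025 genes with a window and 12.4% of 32851 windows. With a further A at the 3′ end, 3 of 36 held it (8.33%), against 3.45% of genes. Of the 9 genes with the core, 6 fell, 1 rose and 2 did not pass, and of the 27 without it 13 fell, 6 rose and 8 did not pass. Over all genes tested, 17.5% were lower and 16.7% higher. Among the falls with the core, those of Prdx1, Txnrd1, G6pdx and Pgd did not hold with each library left out in turn. Whether the core and the changes are linked was not tested. A match is a string of letters, not a site shown to bind NRF2, and elements farther from the start lie outside these windows. The core overlaps the AP-1 motif TGACTCA where its open positions read TCA, as in Prdx1.

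The stretches below, 29 bases each on the strand of the gene with the core in capitals, are shown because they set genes that fell beside Mgst1, which rose, and Nfe2l2, which did not pass. They lie at chr3:122245413-122245441 (Gclm, plus strand), chr4:116685456-116685484 (Prdx1, plus strand), chr10:82859104-82859132 (Txnrd1, plus strand), chrX:74428919-74428947 (G6pdx, minus strand), chr2:152105542-152105570 (Srxn1, plus strand), chr6:138140461-138140489 (Mgst1, plus strand) and chr2:75704885-75704913 (Nfe2l2, minus strand). In Nfe2l2 the core reads forward, and in the other six it reads on the opposite strand, so that the capitals show its reverse complement.
Gclm: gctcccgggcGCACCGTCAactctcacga
Prdx1: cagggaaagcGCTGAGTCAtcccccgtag
Txnrd1: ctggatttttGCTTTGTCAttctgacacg
G6pdx: aggcgggtcaGCTCAGTCAaagcacacgc
Srxn1: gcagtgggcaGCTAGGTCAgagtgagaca
Mgst1: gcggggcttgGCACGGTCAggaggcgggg
Nfe2l2: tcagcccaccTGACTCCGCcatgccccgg
The core of Gclm begins 134 bases before the annotated start, that of Prdx1 133, that of Mgst1 56 and that of Nfe2l2 240, while that of Srxn1 lies just past the start. That of Txnrd1 begins 92 bases before an annotated start well inside the gene, whose span begins at 82833951 (mm10). The stretches of G6pdx and Mgst1 also lie within the spans of their genes, close to the 5′ end.

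Glutathione synthesis and recycling fell at 5 of 5 genes. Slc7a11, the cystine carrier that brings in the limiting amino acid as cystine, had the largest change of the group. It stood at 34.9 and 31.6 CPM in the WT-labelled and 7.64 and 9.94 CPM in the KO-labelled libraries. The WT-labelled libraries were 3.78-fold higher, a log2 fold change of -1.92 (SE 0.12, adjusted p = 4.00e-09), from a low level in both groups.

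Gclc, the catalytic subunit of glutamate-cysteine ligase and the rate-limiting step of synthesis, stood at 482 and 504 CPM in the WT-labelled and 269.9 and 288 CPM in the KO-labelled libraries. Both KO-labelled libraries were well below the others, with a log2 fold change of -0.82 (SE 0.06, adjusted p = 1.67e-08). Gclm, the modifier subunit of the same enzyme, stood at 195 and 189.7 CPM in the WT-labelled and 149 and 146 CPM in the KO-labelled libraries, with a log2 fold change of -0.38 (SE 0.06, adjusted p = 9.16e-05). The fall of the catalytic subunit was therefore the larger on the log2 scale, although the difference between the subunits was not tested. Gss, glutathione synthetase, which adds glycine in the last step, stood at 127 and 126 CPM in the WT-labelled and 87.6 and 96.1 CPM in the KO-labelled libraries, with a log2 fold change of -0.46 (SE 0.07, adjusted p = 4.56e-05). Gsr, the reductase that returns oxidised glutathione to its reduced form with NADPH, stood at 85.8 and 84.0 CPM in the WT-labelled and 67.4 and 71.2 CPM in the KO-labelled libraries. Its groups did not overlap, at -0.29 (SE 0.07, adjusted p = 0.00257), but it did not pass without WT replicate 1 (adjusted p = 0.0848) or WT replicate 2 (0.0718). Exons of Gss overlap other genes over 15.4% of their length and those of Gclm over 4.71%.

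The 19 glutathione transferases did not move one way. Of them, 7 fell, 6 rose and 6 did not pass, with a median log2 fold change of -0.10. Of the other 22 genes on the list, 15 fell, 2 rose and 5 did not pass, with a median of -0.29. By class, the mu class held 3 falls and no rise, the zeta, kappa and omega genes held 3 rises, and the pi and microsomal classes each held a rise in the more abundant gene and a fall in the less abundant gene.

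The 5 mu class genes of the list lie on the minus strand of chromosome 3, in the order Gstm6, Gstm3, Gstm2, Gstm1 and Gstm4 from 107938847 to 108044894 (mm10). Gstm7, on the same strand, and Gstm5, on the plus strand, lie beyond Gstm6 and are not on the list. Gstm1, the most abundant transferase here, stood at 2741 and 2525 CPM in the WT-labelled and 1652 and 2031 CPM in the KO-labelled libraries. Both KO-labelled libraries were lower and differed from each other, with a log2 fold change of -0.52 (SE 0.07, adjusted p = 5.14e-05). Gstm2 had the largest log2 fold change of these 5 genes and went from 147 and 149 CPM in the WT-labelled to 50.2 and 64.1 CPM in the KO-labelled libraries, at -1.37 (SE 0.09, adjusted p = 5.15e-09). Gstm3 stood at 582 and 521 CPM in the WT-labelled and 297 and 395 CPM in the KO-labelled libraries, at -0.67 (SE 0.10, adjusted p = 4.69e-05). Gstm6 and Gstm4 did not pass. Gstm6 stood at 44.0 and 46.0 CPM in the WT-labelled and 43.1 and 47.0 CPM in the KO-labelled libraries, at 0.00 (adjusted p = 0.989). Gstm4 stood at 46.3 and 43.1 CPM in the WT-labelled and 42.3 and 46.8 CPM in the KO-labelled libraries, at -0.01 (adjusted p = 0.970). For Gstm4 and Gstm6 the groups overlapped, and the sign of these near-zero values turned in other settings (given with the processing). Gstm7 and Gstm5 did not pass either, at 0.12 (adjusted p = 0.287) and -0.13 (adjusted p = 0.496). The coding sequences of Gstm1 and Gstm3 are 89.5% identical and those of Gstm1 and Gstm2 85.9%. Of the 50-base windows in their exons, 28.8% of those of Gstm3 and 18.9% of those of Gstm1 also occur in another gene, so that reads there could be counted to a copy or left out. Gstm1 and Gstm3 did not pass when genes with low counts were kept in the fit (adjusted p = 0.0621 and 0.0683).

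The pi class held near-identical neighbours that moved in opposite directions. Gstp1 lies at chr19:4035407-4037985 and Gstp2 at chr19:4040285-4046023, both on the minus strand (mm10). Their coding sequences are 630 bases long and differ at 12 of them. The first 60 coding bases are shown because they hold 6 of those differences, given in capitals. Such differences help to place a read in one gene or the other.
Gstp1: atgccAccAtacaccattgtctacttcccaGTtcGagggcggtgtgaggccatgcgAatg
Gstp2: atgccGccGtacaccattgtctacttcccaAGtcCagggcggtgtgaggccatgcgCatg
Gstp1 stood at 375 and 376 CPM in the WT-labelled and 663 and 733 CPM in the KO-labelled libraries. Both KO-labelled libraries were far above the others, 1.86-fold, at a log2 fold change of 0.89 (SE 0.06, adjusted p = 7.17e-09). Gstp2 stood at 21.3 and 22.3 CPM in the WT-labelled and 12.8 and 12.5 CPM in the KO-labelled libraries, and there both KO-labelled libraries were the lower, at -0.78 (SE 0.10, adjusted p = 2.19e-05). Of 50-base windows, 33.7% of those of Gstp1 and 54.3% of those of Gstp2 occur in another gene. How the authors' counting treated reads that match both is not stated, so the split between the genes is uncertain, most of all for Gstp2, which had the fewer counts. Their summed level went from 397 and 399 CPM in the WT-labelled to 676 and 745 CPM in the KO-labelled libraries and does not depend on how reads were divided between them, although reads that match both may have been left out of either. Some windows of each gene also occur in Gstp-ps, so that reads there may have been counted outside this sum.

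The alpha class, which conjugates products of lipid peroxidation among other substrates, had 2 falls among 4 genes. All 4 fell when KO replicate 2 was left out, and 1 did when any other library was. Gsta3, its most abundant gene, stood at 1067 and 1104 CPM in the WT-labelled and 989 and 1013 CPM in the KO-labelled libraries and did not pass, at -0.12 (SE 0.05, adjusted p = 0.0897). Gsta4, which is known for acting on 4-hydroxynonenal, stood at 109 and 107 CPM in the WT-labelled and 80.4 and 86.6 CPM in the KO-labelled libraries. Its groups did not overlap, and it fell, at -0.37 (SE 0.06, adjusted p = 0.000328). Gsta1 stood at 35.7 and 36.0 CPM in the WT-labelled and 23.9 and 33.1 CPM in the KO-labelled libraries, at -0.33 (SE 0.11, adjusted p = 0.0352). That fall rested on KO replicate 1: without it the log2 fold change was -0.11 (adjusted p = 0.408), without KO replicate 2 it was -0.58 (1.03e-07), and it did not pass without WT replicate 1 (0.228) or 2 (0.296). Gsta2 stood at 65.2 and 71.9 CPM in the WT-labelled and 52.9 and 70.2 CPM in the KO-labelled libraries, with overlapping groups, at -0.16 (adjusted p = 0.265). Gsta1 and Gsta2 are close copies, and 90.5% of the 50-base windows of Gsta1 and 49.8% of those of Gsta2 occur in another gene.

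Of the theta class on chromosome 10, Gstt2 rose, from 50.2 and 53.5 CPM in the WT-labelled to 69.6 and 69.6 CPM in the KO-labelled libraries, at 0.42 (SE 0.07, adjusted p = 0.000187). Its neighbours did not pass. Gstt1, the most abundant of them, stood at 184 and 178 CPM in the WT-labelled and 164 and 174 CPM in the KO-labelled libraries, at -0.10 (adjusted p = 0.248). Gstt3 stood at 32.8 and 31.8 CPM in the WT-labelled and 32.4 and 27.9 CPM in the KO-labelled libraries, with overlapping groups, at -0.10 (adjusted p = 0.440). The zeta, kappa and omega enzymes all rose. Gstz1, which is also the maleylacetoacetate isomerase of tyrosine breakdown, stood at 319 and 308 CPM in the WT-labelled and 434 and 426 CPM in the KO-labelled libraries, at 0.45 (SE 0.05, adjusted p = 8.03e-06). Gstk1, a transferase of mitochondria and peroxisomes, stood at 42.8 and 42.3 CPM in the WT-labelled and 68.1 and 62.9 CPM in the KO-labelled libraries, at 0.62 (SE 0.07, adjusted p = 6.64e-06). In both, every KO-labelled library was above every WT-labelled one. Gsto1, a thiol transferase, stood at 51.8 and 54.6 CPM in the WT-labelled and 65.9 and 62.4 CPM in the KO-labelled libraries, at 0.27 (SE 0.07, adjusted p = 0.00779), but did not pass without WT replicate 1 (adjusted p = 0.143) or 2 (0.0673).

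The microsomal enzymes belong to another protein family that shares the reaction. Mgst1, an abundant protein of the endoplasmic reticulum and outer mitochondrial membrane, stood at 894 and 915 CPM in the WT-labelled and 1518 and 1356 CPM in the KO-labelled libraries. Both KO-labelled libraries were higher, at 0.67 (SE 0.06, adjusted p = 1.91e-07). Mgst3, at a much lower level, went the other way, from 34.4 and 32.5 CPM in the WT-labelled to 16.1 and 19.9 CPM in the KO-labelled libraries, at -0.89 (SE 0.10, adjusted p = 5.11e-06).

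Summed over the 19 genes, transferase RNA was 6842 and 6616 CPM in WT-labelled replicates 1 and 2 and 6275 and 6732 CPM in KO-labelled replicates 1 and 2, so the sums overlapped. The make-up of that sum differed. Per kilobase of exon, the mu class held 63.2% and 61.0% of it in the WT-labelled and 43.3% and 48.6% in the KO-labelled libraries. The pi class held 6.78% and 7.14% against 13.4% and 13.3%. The microsomal enzymes held 12.3% and 13.1% against 23.4% and 19.0%. None of these sums or shares was tested, and with 2 libraries a group an exact permutation test could not fall under 0.333. In bulk RNA, fewer cells of a kind and less RNA per cell cannot be told apart for any gene here.

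**Figure D3:**
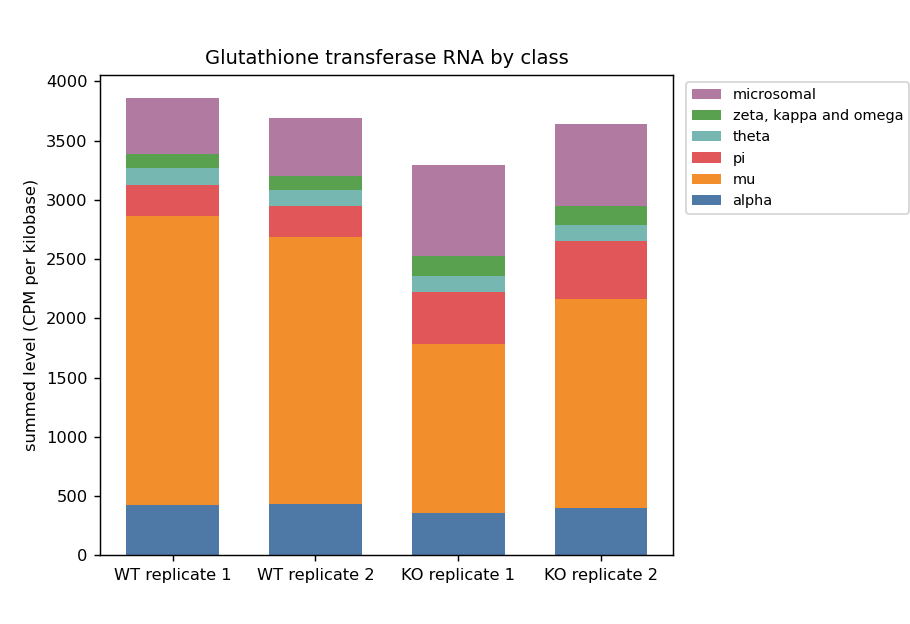
Summed level of the glutathione transferases by class in each library, in CPM per kilobase of exon, stacked from 0. The mu class is the largest part of every bar, 63.2% in WT-labelled replicate 1 and 43.3% in KO-labelled replicate 1, and the pi and microsomal parts are larger in the KO-labelled bars.

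The peroxidases, selenoproteins that use glutathione to reduce peroxides, held both the largest rise and the largest fall of the list. Gpx1, the main cytosolic form of hepatocytes, stood at 637 and 619 CPM in the WT-labelled and 1179.7 and 1263 CPM in the KO-labelled libraries. Both KO-labelled libraries were nearly double the others (1.94-fold), at 0.96 (SE 0.05, adjusted p = 1.13e-09). Gpx2, known as the form of the gut epithelium and an NRF2 target, was low throughout, with 89 and 100 counts in WT-labelled replicates 1 and 2 and 6 and 15 in KO-labelled replicates 1 and 2. Its log2 fold change was -3.01 (SE 0.33, adjusted p = 2.77e-06), and of the 14200 genes tested 58 fell further. Gpx4, which reduces lipid peroxides in membranes and guards against ferroptosis, stood at 359.6 and 347 CPM in the WT-labelled and 264 and 327 CPM in the KO-labelled libraries, at -0.26 (SE 0.08, adjusted p = 0.0174). KO replicate 2 lay near the WT-labelled libraries. Without KO replicate 1 the value was -0.10 (adjusted p = 0.114), without KO replicate 2 it was -0.42, and Gpx4 did not pass without WT replicate 1 (0.242) or 2 (0.201). Of its 50-base windows, 34.7% also occur in pseudogenes.

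In the thioredoxin system, which returns oxidised protein thiols to their reduced form, the clear change was in Srxn1. Srxn1, sulfiredoxin, repairs overoxidised peroxiredoxins. It stood at 178 and 180.2 CPM in the WT-labelled and 74.4 and 97.9 CPM in the KO-labelled libraries. Both KO-labelled libraries lay far below, at -1.06 (SE 0.09, adjusted p = 2.19e-07). Txnrd1, the cytosolic thioredoxin reductase, stood at 160.5 and 158 CPM in the WT-labelled and 139 and 136 CPM in the KO-labelled libraries, at -0.21 (SE 0.06, adjusted p = 0.0119). Prdx1, a peroxiredoxin that thioredoxin serves, stood at 533 and 538 CPM in the WT-labelled and 462 and 484 CPM in the KO-labelled libraries, at -0.18 (SE 0.05, adjusted p = 0.0161). These falls were small, and although the groups did not overlap neither gene passed without a WT-labelled library. The adjusted p of Txnrd1 was 0.171 without WT replicate 1 and 0.142 without WT replicate 2, and that of Prdx1 was 0.174 and 0.230. Txn1, thioredoxin itself, stood at 106 and 111 CPM in the WT-labelled and 108 and 123 CPM in the KO-labelled libraries, with overlapping groups, at 0.09 (adjusted p = 0.344). Prdx6, a peroxiredoxin that draws on glutathione, stood at 351 and 340.4 CPM in the WT-labelled and 308 and 318 CPM in the KO-labelled libraries and did not pass, at -0.14 (SE 0.06, adjusted p = 0.0616).

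NADPH, which both systems consume, is made in the first part of the pentose phosphate pathway. G6pdx, glucose-6-phosphate dehydrogenase, the entry step, was low and stood at 12.7 and 13.5 CPM in the WT-labelled and 11.3 and 8.85 CPM in the KO-labelled libraries, at -0.38 (SE 0.14, adjusted p = 0.0426). Pgd, which makes the second NADPH, stood at 112 and 112 CPM in the WT-labelled and 83.3 and 99.0 CPM in the KO-labelled libraries, at -0.30 (SE 0.08, adjusted p = 0.00637). Neither call held with each library left out in turn. Without KO replicate 2 the value of G6pdx was -0.20 (adjusted p = 0.296), and without KO replicate 1 it was -0.55; it did not pass without WT replicate 1 (0.158) or 2 (0.299). Pgd was at -0.17 without KO replicate 1 and at -0.42 without KO replicate 2, and it did not pass without WT replicate 1 (0.123) or 2 (0.152). Exons of G6pdx overlap those of Ikbkg over 13.6% of their length. Taldo1, the transaldolase of the non-oxidative part, stood at 104 and 103 CPM in the WT-labelled and 94.9 and 98.2 CPM in the KO-labelled libraries and did not pass, at -0.10 (adjusted p = 0.227).

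The reductases fell together, 3 of 3. Nqo1, the quinone reductase most often used as a readout of NRF2, stood at 34.5 and 37.5 CPM in the WT-labelled and 14.1 and 17.99 CPM in the KO-labelled libraries, 2.24-fold higher in the WT-labelled libraries, at -1.16 (SE 0.11, adjusted p = 4.41e-07). Cbr1 and Cbr3 are neighbouring carbonyl reductases on chromosome 16, starting at 93605853 and 93683215 (mm10), with coding sequences 77.1% identical. Cbr1 stood at 190.0 and 181 CPM in the WT-labelled and 107 and 119 CPM in the KO-labelled libraries, at -0.71 (SE 0.07, adjusted p = 4.80e-07). Cbr3 stood at 32.9 and 36.3 CPM in the WT-labelled and 7.81 and 8.05 CPM in the KO-labelled libraries, 4.36-fold higher in the WT-labelled libraries, at -2.12 (SE 0.11, adjusted p = 3.35e-10). In each of the 3 genes every KO-labelled library lay below every WT-labelled one. Ephx1, the microsomal epoxide hydrolase, rose instead, from 515 and 522 CPM in the WT-labelled to 772 and 771 CPM in the KO-labelled libraries, at 0.57 (SE 0.05, adjusted p = 3.18e-07).

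Levels can be compared between genes only per length. In CPM per kilobase of exon (mean ± SD of 2 libraries), Gstm1 led the WT-labelled libraries at 1787 ± 104, followed by Mgst1 at 449 ± 7.44, Gpx1 at 436 ± 8.81 and Gstm3 at 421 ± 33.2. Gpx1 and Gstm3 did not differ beyond their spread. Gsta3 at 249.8 ± 5.99 and Gstp1 at 243 ± 0.423 lay close together. In the KO-labelled libraries Gstm1 was still the highest, at 1250.0 ± 182, but Gpx1 at 848 ± 40.9 and Mgst1 at 714 ± 57.0 came nearer, followed by Gstp1 at 451 ± 31.7 and Ephx1 at 396 ± 0.597. The lowest levels in the WT-labelled libraries were those of Gpx2 at 1.53 ± 0.112 and Slc7a11 at 2.39 ± 0.166. With the longest transcript in place of all exons as the length, 9 of the 10 highest genes were the same.

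**Figure D4:**
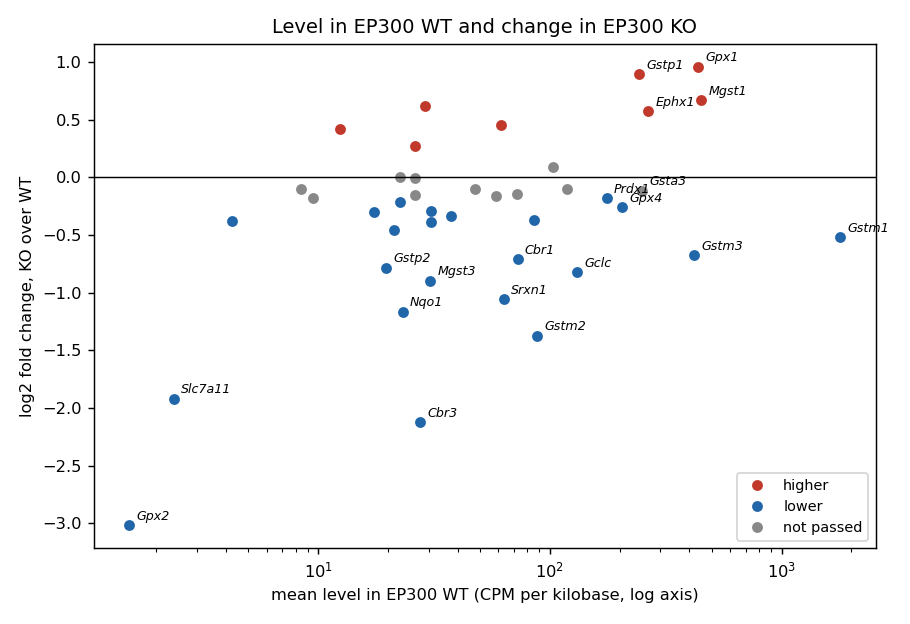
Log2 fold change of each gene, KO-labelled over WT-labelled libraries, against its level in the WT-labelled libraries in CPM per kilobase of exon on a log axis. Gstm1 has the highest level and fell by 0.52, while Gpx2 and Slc7a11, which are among the 3 largest falls, have the lowest levels of the 41 genes and Cbr3, the third, lies mid-list at 27.6.

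Outside the 41 genes, a further 103 genes of the same pathways were listed, of which 95 were tested. Of these, 28 rose and 27 fell, with a median log2 fold change of -0.02. Over all genes tested, the shares were 16.7% higher and 17.5% lower. Among 12 genes that control NRF2, 2 rose, or 1 without WT replicate 1 or 2, and 4 fell. Mafg, a small MAF partner of NRF2, rose from 82.2 and 85.3 CPM in the WT-labelled to 108 and 109.9 CPM in the KO-labelled libraries, at 0.38 (SE 0.06, adjusted p = 0.000189), and Maff, another small MAF protein, fell from 79.2 and 70.1 CPM in the WT-labelled to 38.5 and 46.0 CPM in the KO-labelled libraries, at -0.82 (SE 0.09, adjusted p = 2.52e-06). Among 22 other NRF2 targets, 5 rose and 13 fell, with a median of -0.23. The falls in that list numbered 8 without WT replicate 1 and 7 without WT replicate 2, and the rises 3 without WT replicate 2. Akr1b7, an aldo-keto reductase, stood at 22.4 and 18.6 CPM in the WT-labelled and 3.59 and 3.33 CPM in the KO-labelled libraries, at -2.56 (SE 0.15, adjusted p = 2.02e-09), and its exons overlap Gm13857 over 27.2% of their length. Me1, the cytosolic malic enzyme and a source of NADPH, rose from 47.9 and 48.3 CPM in the WT-labelled to 116 and 100.5 CPM in the KO-labelled libraries, at 1.17 (SE 0.08, adjusted p = 6.16e-09). Hmox1, the haem oxygenase that NRF2 and BACH1 both control, is named here after its values were seen. It stood at 92.0 and 90.5 CPM in the WT-labelled and 84.4 and 90.8 CPM in the KO-labelled libraries and did not pass, at -0.06 (adjusted p = 0.535).

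The counts of the lists below stand against the same shares, 16.7% higher and 17.5% lower of all genes tested. Among 17 tested genes of glutathione turnover and precursor supply, 6 rose and 4 fell. Without WT replicate 2 the falls numbered 2. Ggt1, the gamma-glutamyl transpeptidase that starts the breakdown of glutathione outside the cell, was picked out on its values. Its counts were 26 and 31 in the WT-labelled and 1 and 4 in the KO-labelled libraries, a low level, at -3.31 (SE 0.56, adjusted p = 0.000246). Hagh, which releases glutathione in the glyoxalase pathway, rose from 90.1 and 82.9 CPM in the WT-labelled to 144 and 148 CPM in the KO-labelled libraries, at 0.76 (SE 0.06, adjusted p = 1.75e-07). Chac2, which breaks glutathione down, fell, at -0.37 (SE 0.13, adjusted p = 0.0331), but without KO replicate 2 its value was -0.19 (adjusted p = 0.257), and it did not pass without WT replicate 1 (0.275) or 2 (0.160). Among 16 other thioredoxin and glutaredoxin genes, 7 rose and 1 fell, and the rises numbered 3 without WT replicate 1 or 2. Msrb1, a methionine sulfoxide reductase, rose, at 0.60 (SE 0.06, adjusted p = 9.19e-07), and Prdx3, the mitochondrial peroxiredoxin, fell from 122 and 126 CPM in the WT-labelled to 78.7 and 83.6 CPM in the KO-labelled libraries, at -0.61 (SE 0.06, adjusted p = 1.86e-06). Of 13 other NADPH genes, 4 rose and 4 fell, among them Me1 and, lower, Idh2, the mitochondrial isocitrate dehydrogenase, at -0.48 (SE 0.07, adjusted p = 8.87e-05). The falls in that list numbered 2 without WT replicate 1 and 1 without WT replicate 2. Of 7 genes against superoxide, hydrogen peroxide and metals, 4 rose and 1 fell. Cat, catalase, rose, from 919 and 923 CPM in the WT-labelled to 1849 and 1749.5 CPM in the KO-labelled libraries, at 0.97 (SE 0.05, adjusted p = 5.23e-10). Mt1, a metallothionein, fell, at -0.32 (SE 0.09, adjusted p = 0.0120), though without KO replicate 1 its value was -0.13 (adjusted p = 0.0822), and it did not pass without WT replicate 1 (0.192) or 2 (0.194). Of 4 other peroxidases tested, Gpx3 was the 1 that fell, at -0.37 (SE 0.10, adjusted p = 0.00651), and did not pass without WT replicate 1 (0.0752) or 2 (0.112). Of 6 other transferases tested, 1 rose, Mgst2, named after its values were seen and at a low level of 0.474 and 0.364 CPM in the WT-labelled and 1.27 and 0.805 CPM in the KO-labelled libraries. It did not pass without KO replicate 1 (adjusted p = 0.356), WT replicate 1 (0.166) or WT replicate 2 (0.262).

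**Figure D5:**
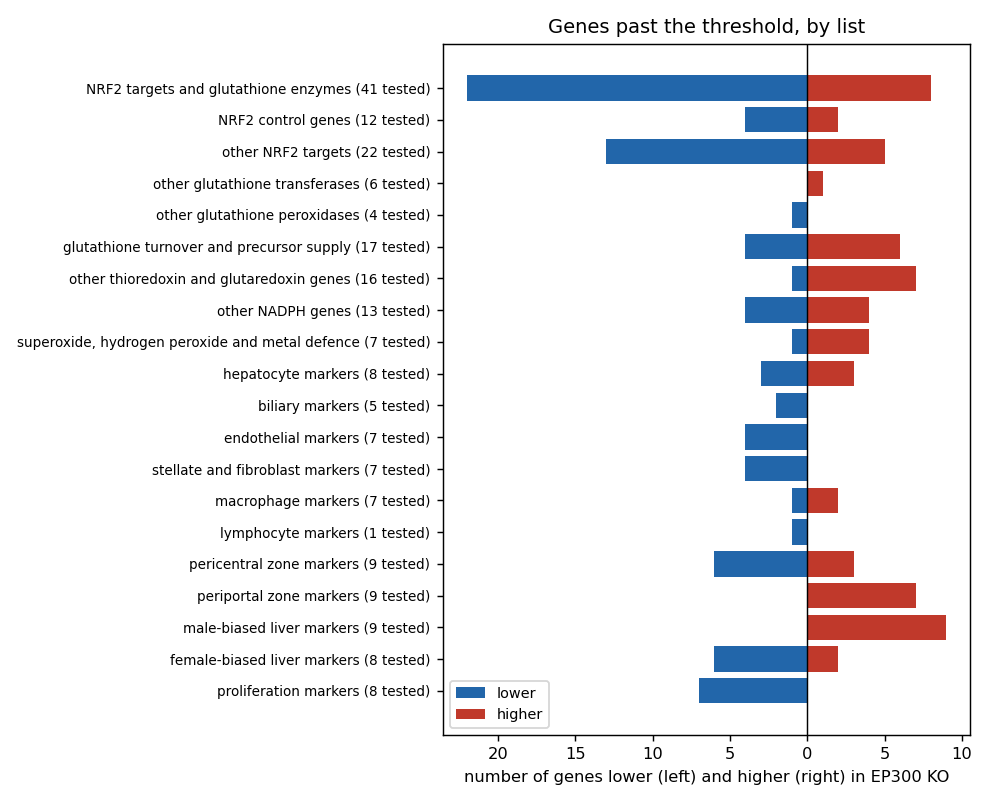
Number of genes that passed at an adjusted p under 0.05 in each pathway and marker list, lower in the KO-labelled libraries to the left of 0 and higher to the right, with the number tested beside each name. The bar of the 41 genes reaches 22 to the left and 8 to the right, and that of the other NRF2 targets 13 and 5. To the right lie 9 of 9 male-biased genes, and to the left 7 of 8 proliferation genes. Of all genes tested, 17.5% were lower and 16.7% higher.

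Other marker lists moved beside these genes, and their counts stand against 17.5% lower and 16.7% higher of all genes tested. The summed level of 9 pericentral genes was 5201 to 5202 CPM in the WT-labelled and 4277 to 4581 CPM in the KO-labelled libraries, with 6 of 9 lower and 3 higher (2 higher without WT replicate 1 and 1 without WT replicate 2), and that of 9 periportal genes was 7899.6 to 7977 CPM in the WT-labelled and 12027 to 12256 CPM in the KO-labelled libraries, with 7 of 9 higher. The summed level of 9 male-biased genes was 765 to 779 CPM in the WT-labelled and 3629 to 4365 CPM in the KO-labelled libraries, and that of 9 female-biased genes was 2377 to 2427 CPM in the WT-labelled and 557 to 668 CPM in the KO-labelled libraries, where 2 of the 8 tested were higher, or 1 without KO replicate 1 or WT replicate 1, and 6 lower. Of the stellate and fibroblast genes, 4 of 7 were lower, 0 without WT replicate 1 and 2 without WT replicate 2. Proliferation genes, of which 7 of 8 were lower, summed to 76.2 to 77.1 CPM in the WT-labelled and 42.4 to 47.4 CPM in the KO-labelled libraries. Of other cell types, the endothelial list summed to 276 to 282 CPM in the WT-labelled and 212 to 239 CPM in the KO-labelled libraries. The stellate and fibroblast list summed to 170.2 to 173 CPM in the WT-labelled and 146 to 156 CPM in the KO-labelled libraries. The macrophage list summed to 413 to 418 CPM in the WT-labelled and 443 to 449 CPM in the KO-labelled libraries. Of its 7 genes, 2 were higher, 1 was lower and 4 did not pass. Marco, 1 of the 2 higher genes, went from 5.37 and 6.08 CPM in the WT-labelled to 41.1 and 27.8 CPM in the KO-labelled libraries. Of the lymphocyte list, 1 of 6 genes had enough counts to be tested, and of the biliary list 5 of 8, with 2 lower. No marker in these lists was at 0 in all 4 libraries. The male-biased genes were higher in the same libraries in which Xist, an RNA of female cells, was high. Because Xist split the libraries as the labels do, a part of sex cannot be told apart from that of the KO label. The part of zonation, proliferation or other cells in the changes of the 41 genes was not tested.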

How the data were processed

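For the EP300 experiment the authors deposited 1 table of raw read counts per gene. Per the submitters' processing notes, the build was mm10 and the tools were STAR, HTSeq and DESeq2, without their roles. The deposited counts carry Hisat in their name, which these notes do not list, so how the reads were aligned is not settled. The annotation and strand setting are not given in the sources used here. Another 4 columns of the table match no sample and were not used. Per the labels, RNA came from sorted liver cells and libraries from a TruSeq RNA kit. Groups and replicate numbers follow the sample titles.

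Of 55385 identifiers, 55144 matched a symbol in GENCODE M21 (mm10), the source of coordinates and exon lengths. Counts were tested with edgeR 4.0.16 (TMM, filterByExpr with a minimum count of 10, quasi-likelihood F test, group as the only term, 4 libraries) in R 4.3.3, with Benjamini-Hochberg adjustment over 14200 genes and a threshold of 0.05. The SE was taken as the size of the log2 fold change over √F. Total counts were 17709799 and 17811489 (KO replicates 1 and 2) and 18575701 and 18831671 (WT replicates 1 and 2). Replicates differed by more than sampling noise (chi-square per degree of freedom 2.72 in WT and 5.96 in KO).

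The 41 genes and all lists were chosen with earlier results of these data known. All 41 could be named; of other lists, the largest rise and fall that passed with at least 10 CPM in the higher group, plus Ep300, Met and Xist. Ggt1, Hmox1, Mgst2, Gstm5 and Gstm7 fall outside this rule and were chosen after their values were seen. The exon windows of 50 bases and the coding identities, added after the files were seen, describe copies and change no count. The test was tried on simulated data. Alternatives were DESeq2 1.42.0, limma-voom (limma 3.58.1), other scalings and filters, a threshold of 0.01, a fit without the 20 most abundant genes, a block for the replicate number, and fits without each library in turn.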

Additional observations from a re-analysis of the deposited data

How the results depend on the processing

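Over all genes, 1416 were higher and 1287 lower with no filter on low counts, 1614 were lower with DESeq2, and 1160 to 2574 were higher and 1146 to 2580 lower with a library left out, the fewest without WT replicate 2 and next without WT replicate 1 (1280 higher and 1322 lower). Of the 41 genes, 14 were lower with no filter, and 15 to 25 were lower and 7 to 9 higher with a library left out. With DESeq2 19 were lower and 8 higher, with limma-voom 23 and 8, and at a threshold of 0.01 17 and 8. Their median log2 fold change stayed between -0.28 and -0.17. Replicate numbers did not pair the libraries (correlation of same-numbered deviations -0.00), and with the replicate number as a block 22 of the 41 were lower and 8 higher, as without it, and of all genes 2526 were higher and 2664 lower. By library size alone, the log2 ratios of class sums were -0.21 for alpha, -0.045 for theta (against 0.02) and 0.38 for zeta, kappa and omega transferases. With a library left out they ranged from -0.18 to -0.11 (alpha), -0.72 to -0.41 (mu), 0.77 to 0.91 (pi), 0.01 to 0.04 (theta), 0.43 to 0.47 (zeta, kappa and omega), 0.55 to 0.71 (microsomal), -0.10 to 0.00064 (all transferases) and 0.55 to 0.69 (peroxidases). With the longer motif, 3 promoters matched. Signs turned only for genes that did not pass and for 2 sums. Gstm4 was at 0.0068 with no filter. Gstm6 was at -0.065 and Met at -0.020 by library size. With a library left out, log2 fold changes ranged from -0.37 to 0.044 for Gsta2, from -0.075 to 0.077 for Gstm4, from -0.058 to 0.075 for Gstm6, from -0.20 to 0.0092 for Gstt3, from -0.0017 to 0.20 for Txn1, from -0.019 to 0.12 for Met and from -0.11 to 0.0042 for Hmox1. The cause of these differences was not tested. Where a group is left with 1 library, the spread is taken from the other group, and that library is assumed to vary like the others. Without a WT-labelled library this is the KO-labelled pair, whose chi-square per degree of freedom was 5.96, against 2.72 in WT. Without WT replicates 1 and 2 in turn, Gsr was at -0.27 and -0.30, against -0.29 in the main fit. Txnrd1 was then at -0.19 and -0.21, against -0.21, and Prdx1 at -0.18 and -0.16, against -0.18. Depth limits Gpx2, whose KO-labelled counts were 6 and 15.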
